A study of Danio rerio with 8 samples.

Results

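The genes described here are those that defend cells against peroxides and other reactive oxygen species through glutathione, thioredoxin and the enzymes that work with them. They were chosen by symbol alone, as every gene of the deposited count table named as a glutathione peroxidase (*gpx*), glutathione S-transferase (*gst*), peroxiredoxin (*prdx*), thioredoxin or thioredoxin-like gene (*txn*), glutaredoxin (*glrx*), superoxide dismutase (*sod*), heme oxygenase (*hmox*), *nqo1*, *gclc*, *gclm*, *gss*, *gsr*, *cat*, *srxn1*, *keap1* or *nfe2l2*. The rule gave 73 of the 32520 genes listed. It uses no measured value, but it was chosen with earlier results of these data known. Adult zebrafish retinas at 6 months post-fertilization (mpf) were compared between *bbs2* -/- homozygotes and their *bbs2* +/+ wild-type siblings, all raised from crosses of heterozygotes, with 4 samples per genotype and fish of both sexes. *bbs2* encodes a subunit of the BBSome, a complex that moves membrane proteins within the cilium, and the mutant loses cones progressively. Fish of both genotypes were dark-adapted overnight, and each sample pooled a pair of retinas with most of the retinal pigment epithelium (RPE) dissected away. Ribosomal RNA was depleted before sequencing, and each value below rests on the number of reads the authors assigned to a gene.

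Glutathione is a small thiol made by glutamate-cysteine ligase and glutathione synthetase. It feeds the peroxidases that reduce hydrogen peroxide and lipid peroxides, and glutathione reductase restores it with NADPH. Thioredoxins pass electrons from thioredoxin reductase to the peroxiredoxins. The transcription factor Nrf2, encoded in zebrafish by *nfe2l2a* and *nfe2l2b* and held in check by Keap1, drives many of these genes under oxidative stress. The retina is known for its high oxygen use, and photoreceptor membranes are rich in polyunsaturated lipids that oxidise readily.

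Total gene counts ran from 6279179 to 8442827 in the wild-type libraries and from 7289910 to 11496801 in the mutant libraries. *bbs2* itself was lower in the mutants, with 28.4, 27.3, 28.8 and 28.6 CPM (counts scaled to the library total after TMM adjustment) against 39.8, 45.5, 42.6 and 42.8 in the wild-type siblings. The tissue label was checked against marker genes. Summed rod markers stood at 21658 to 27572 CPM in wild-type and 24356 to 34080 in mutant libraries, and none of the 13 was without counts. *rho* made up most of this sum, at 11096 to 16198 CPM in wild-type and 15939 to 21390 in mutant libraries. Of the 13, 2 were called higher (*rho* and *nr2e3*) and 1 lower (*pde6b*), or 15.4% and 7.69%, against 15.2% and 13% of all tested genes. Summed cone markers stood at 21287 to 22584 CPM in wild-type siblings and at 7613 to 9081 in mutants, and 16 of 17 were called lower. In bulk retina, fewer cells of a type and less RNA per cell cannot be told apart. All 16 tested markers of RPE and pigment cells were higher in mutants, with a summed level of 205, 127, 101 and 250 CPM in wild-type libraries 1 to 4 and 2109, 2062, 1460 and 2096 in mutant libraries 1 to 4. Of the 18 RPE and pigment cell markers found, *ttr* was at 0 in all libraries and *lrata* had too few counts to be tested. The 14 tested markers of microglia and macrophages were also all higher, where 15.2% of all tested genes were called higher. All markers found on this list summed to 68.0 to 98.5 CPM in wild-type and 289 to 389 CPM in mutant libraries. *c1qa*, *c1qb*, *c1qc* and *ctss2.1* had too few counts to be tested. Some tested markers of both lists, such as *tyr*, *slc45a2*, *mitfa*, *ctss2.2* and *spi1b*, had enough counts only because of the mutant libraries. A call of lower was hardly open to these. Of 13 tested Müller glia markers, 4 were called higher and 2 lower (30.8% and 15.4%, against 15.2% and 13% of all tested genes). Their summed level was 1827 to 2288 CPM in wild-type and 1991 to 2058 in mutant libraries. Of 8 tested vascular endothelium markers, 2 were called higher (25%), with sums of 84.9 to 96.3 CPM in wild-type and 92.4 to 114 in mutant libraries. Red blood cell markers summed to at most 10.3 CPM in any library and lens markers to at most 4.13. The rises of RPE and microglia markers accompany every result below in the same 4 libraries, and their part in those results was not tested.

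Antioxidant genes were higher in mutants more often than tested genes in general, while few were lower. Of the 73 genes, 59 had enough counts to be tested with edgeR's quasi-likelihood test at a false discovery rate (FDR) of 0.05 over all 17144 tested genes. Among the 59, 20 were called higher in mutants (33.9%) and 4 lower (6.78%), where 15.2% of all tested genes were called higher and 13% lower (28.1% in either direction). The median log2 fold change (log2FC, mutant over wild-type) was 0.25 over the 59 genes and -0.01 over all tested genes. All 4 mutant libraries lay above all 4 wild-type libraries for 18 of the 59, against 15.4% of all tested genes, and below them for 3, against 13.9%. Of the 59, 8 were called higher with a change of more than 2-fold, where 7.09% of all tested genes were called higher with such a change. None was called lower with a change of that size, but the share of all tested genes lower by as much was not counted, so no contrast is drawn. These 8 were *sod3a*, *txn*, *gsta.1*, *gpx4b*, *txnipa*, *gsta.2*, *gsto2* and *gsr*. Of these, *sod3a*, *txn*, *gsta.1*, *gsta.2* and *gsto2* had fewer than 10 counts in some or all wild-type libraries. They met the count filter only because of the mutant libraries, so a call of lower was hardly open to them. The 4 called lower were *gpx4a*, *txn2*, *sod2* and *gpx1a*.

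**Figure D1:**
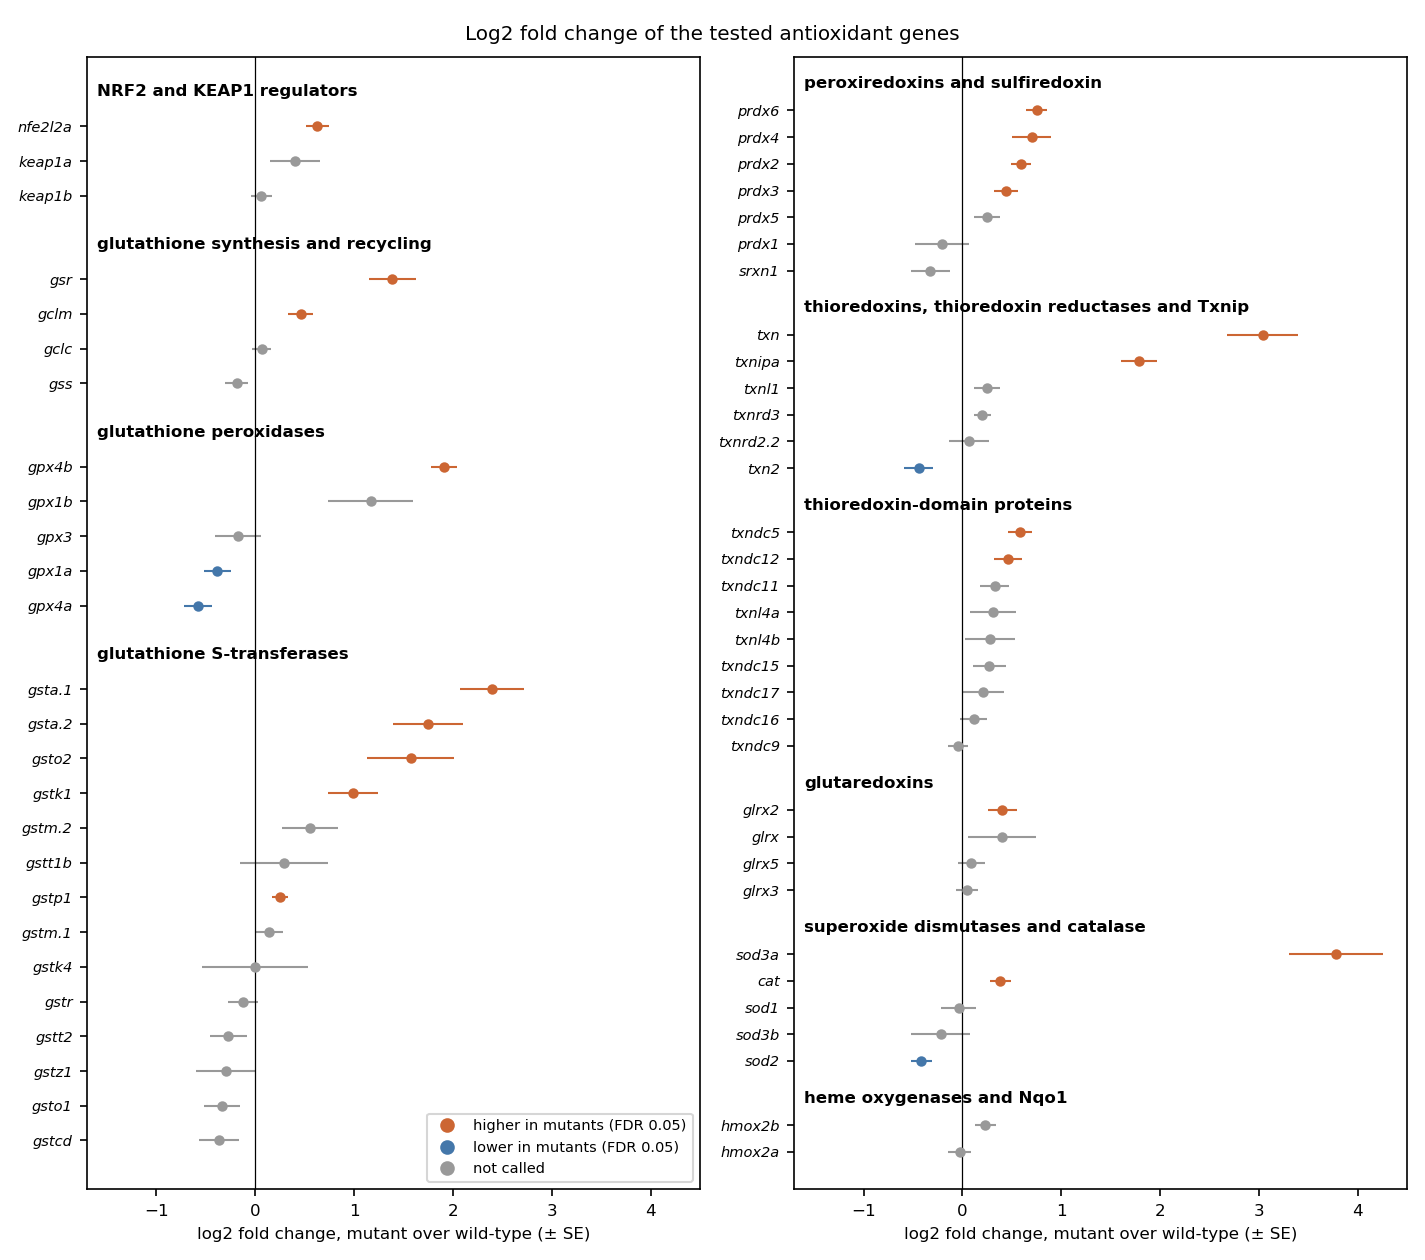
Log2 fold change of each of the 59 tested antioxidant genes (horizontal axis, mutant over wild-type, bars ± SE, 4 libraries per genotype), grouped by role. Orange points were called higher at FDR 0.05 (20 genes), blue points lower (4 genes) and grey points were not called. The points farthest right are *sod3a* at 3.78 and *txn* at 3.04, and the lowest is *gpx4a* at -0.58.

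Of the regulators, *nfe2l2a* (ENSDARG00000042824), which encodes Nrf2, rose in mutants. It was at 22.5, 29.4, 32.2 and 25.3 CPM in the wild-type retinas and at 40.3, 48.8, 41.3 and 39.2 in the mutant libraries, so that the genotypes did not overlap (log2FC 0.63, SE 0.12, edgeR adjusted p = 0.000755). Its repressor genes were not called. *keap1b* was at 25.4 to 31.2 CPM in wild-type siblings against 26.5 to 33.8 in mutants (log2FC 0.06, SE 0.11). *keap1a* was at 5.31, 6.88, 7.81 and 14.3 CPM in the wild-type retinas and at 11.5, 12, 9.22 and 13.2 in the mutant libraries (log2FC 0.41, SE 0.25, edgeR adjusted p = 0.269). Wild-type library 4 alone exceeded the mutants, and without it *keap1a* was called higher (log2FC 0.76, edgeR adjusted p = 0.00907). The second Nrf2 gene, *nfe2l2b*, had 6, 3, 2 and 2 counts in the wild-type libraries and 10, 18, 16 and 14 in the mutant libraries, too few for the filter.

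The genes that make and recycle glutathione moved unevenly, and the reductase changed most. *gsr* (ENSDARG00000019236), which encodes glutathione reductase, was at 4.81, 3.0, 4.15 and 2.15 CPM in the wild-type retinas and at 10.9, 8.38, 8.96 and 8.29 in the mutant libraries, 2.62-fold higher (log2FC 1.39, SE 0.24, edgeR adjusted p = 0.000361). All of its mutant values lay above its wild-type values. Glutamate-cysteine ligase has a catalytic subunit, encoded by *gclc*, and a modifier subunit, encoded by *gclm*, that raises its efficiency. *gclm* rose from 10.9, 10.1, 11.2 and 11.2 CPM to 16.1, 15.4, 14.3 and 13.9 (log2FC 0.46, SE 0.13, edgeR adjusted p = 0.0136). *gclc* stood at 27.9 to 32.8 CPM in wild-type siblings against 29.5 to 34.6 in mutants (log2FC 0.07, SE 0.10). The genotypes were therefore apart for the modifier and overlapped for the catalytic subunit. The log2 ratio of *gclc* to *gclm* was 1.44 ± 0.137 (SD) in wild-type siblings against 1.06 ± 0.185 in mutants, a difference that did not pass (two-sided exact permutation test, p = 0.0571, adjusted p = 0.129 over 9 pairs of related genes). With 4 libraries per genotype, hardly any pair could pass this adjustment, so that result says little about the subunits. *gss*, for glutathione synthetase, was not called (18.1 to 21.4 CPM against 16.4 to 18.6, log2FC -0.19).

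**Figure D2:**
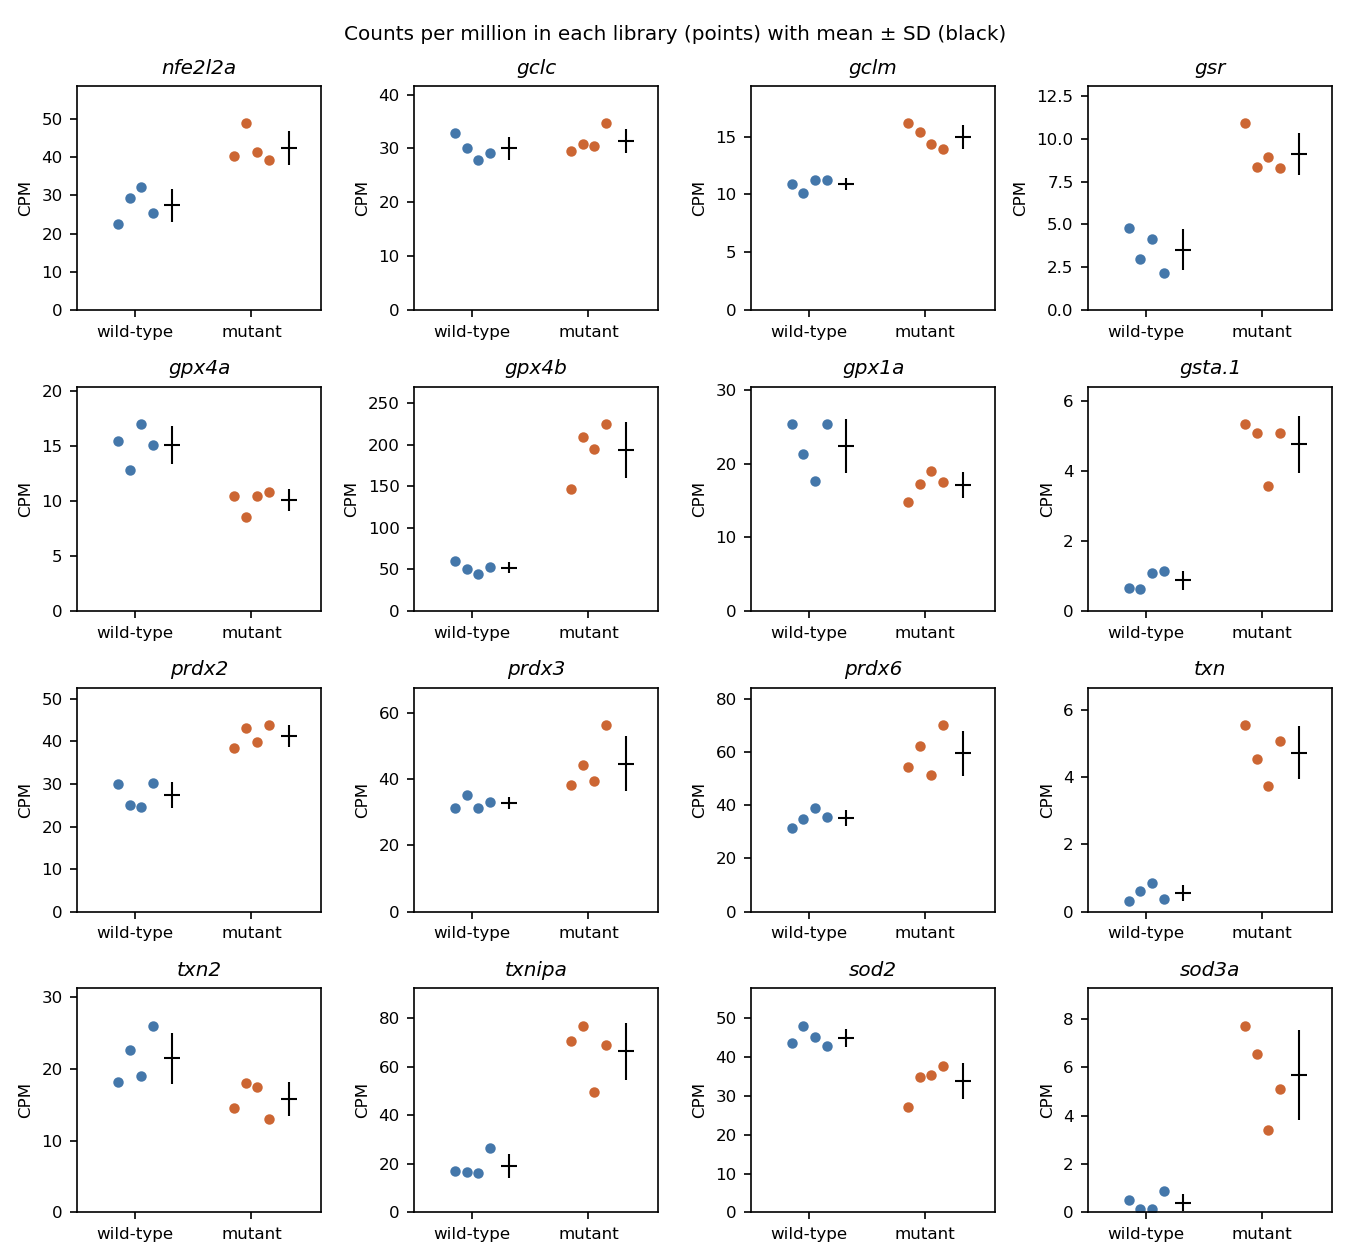
CPM (vertical axes, each starting at 0) of 16 antioxidant genes in the 4 wild-type (blue) and 4 mutant (orange) libraries, with the mean ± SD in black. All mutant points lie above all wild-type points for *gpx4b*, *txn*, *txnipa*, *sod3a* and *gsr*, and below them for *gpx4a*, *sod2* and *txn2*. For *gclc* the points of the genotypes overlap.

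The glutathione peroxidases moved in opposite directions, and a pair of related genes for the lipid peroxidase Gpx4 was split. Gpx4 reduces lipid peroxides within membranes and is known for holding back ferroptosis, a form of cell death driven by them. *gpx4b* (ENSDARG00000076836) was at 59.8, 50.4, 44.3 and 53.1 CPM in the wild-type retinas and at 147, 210, 194 and 225 in the mutant libraries, 3.75-fold higher (log2FC 1.91, SE 0.13, edgeR adjusted p = 8.15e-07). Every mutant library stood far above every wild-type library. *gpx4a* (ENSDARG00000068478) was at 15.4, 12.8, 17 and 15 CPM in the wild-type retinas and at 10.4, 8.57, 10.4 and 10.8 in the mutant libraries (log2FC -0.58, SE 0.14, edgeR adjusted p = 0.006). These values did not overlap either, with the mutants below. The log2 ratio of *gpx4a* to *gpx4b* went from -1.77 ± 0.274 (SD) to -4.23 ± 0.329, lower in 4 of 4 mutant libraries (two-sided exact permutation test, p = 0.0286, the smallest that 4 against 4 can give, adjusted p = 0.0857 over the 9 pairs).

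The other main pair of peroxidase genes encodes Gpx1, which reduces hydrogen peroxide in the cytosol. *gpx1a* was at 25.4, 21.4, 17.7 and 25.4 CPM in wild-type siblings and at 14.8, 17.2, 19.0 and 17.5 in mutants (log2FC -0.39, SE 0.14, edgeR adjusted p = 0.0453). The genotypes overlapped, and the call ended under 10 of 16 other settings, among them DESeq2 (adjusted p = 0.0625) and the fits without wild-type 1, 2 or 4 or mutant 1, 2 or 4 (edgeR adjusted p = 0.0615 to 0.125). *gpx1b* was at 0.497, 2.88, 1.71 and 1.64 CPM in wild-type siblings and at 2.57, 6.83, 2.87 and 3.21 in mutants (log2FC 1.17, SE 0.43, edgeR adjusted p = 0.0583). Mutant 2 was the highest library for *gpx1b*, and wild-type 2 exceeded mutant 1 and mutant 3. *gpx1b* was called without wild-type 2 (log2FC 1.54, edgeR adjusted p = 0.026) or mutant 1 (1.32, 0.0492), with library totals (1.26, 0.0381) and with no filter (1.17, 0.0413). The ratio of *gpx1a* to *gpx1b* was lower in 4 of 4 mutant libraries than in any wild-type library, with the same exact permutation p as for the *gpx4* pair. *gpx3*, for the secreted plasma form, was not called (3.65 to 5.31 CPM against 3.13 to 4.73). *gpx2* had no count in any library, and *gpx7*, *gpx8* and *gpx9* had at most 5 counts in a library.

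**Figure D3:**
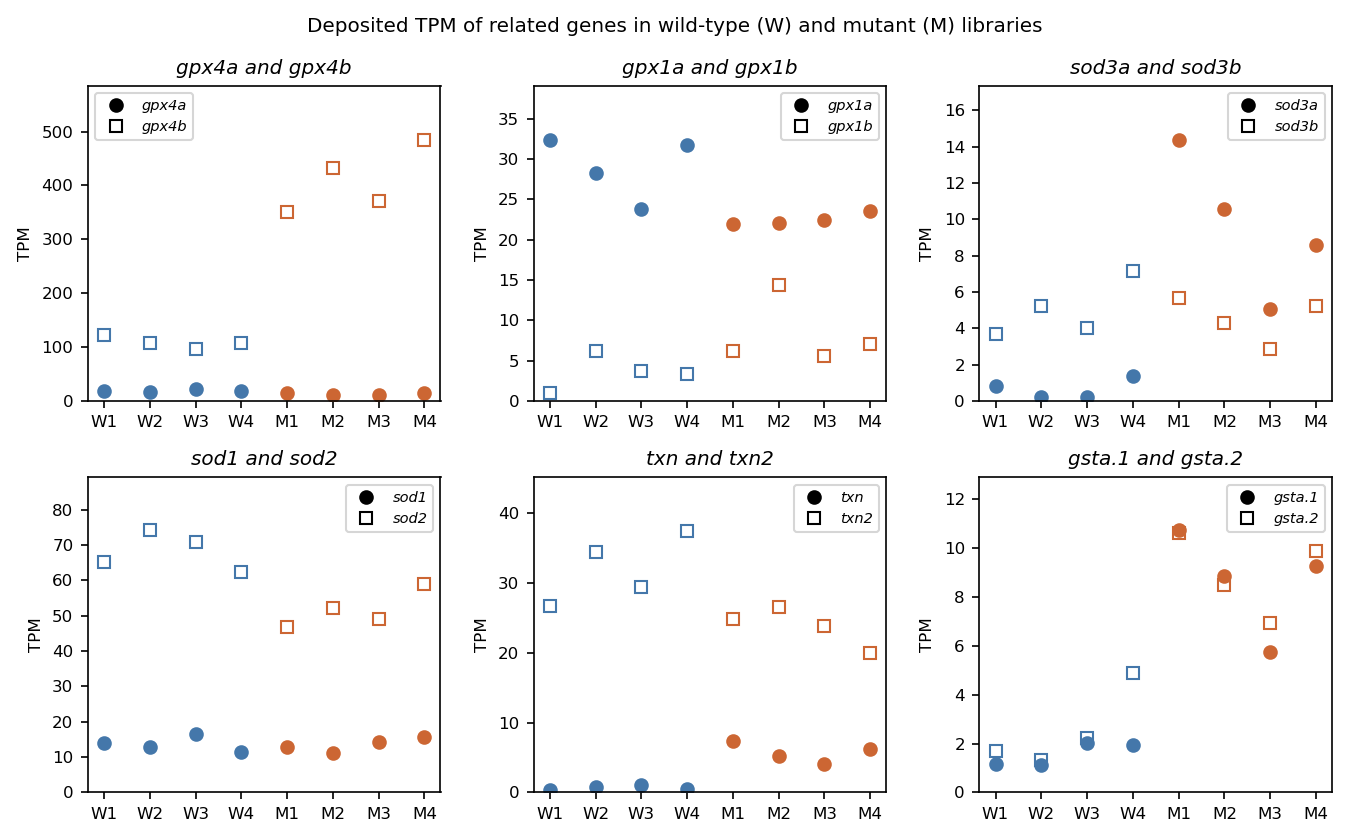
Deposited TPM (transcript levels scaled by gene length and library total, vertical axes from 0) of 6 pairs of related genes in each wild-type (W1 to W4, blue) and mutant (M1 to M4, orange) library, with a filled circle for the first gene and an open square for the second. *gpx4b* stands above *gpx4a* in every library and parts further from it in mutants, and *sod3a* lies below *sod3b* in all 4 wild-type libraries and above it in all 4 mutant libraries.

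Among the glutathione S-transferases, which join glutathione to lipid aldehydes and foreign compounds, the alpha class changed most. *gsta.1* (ENSDARG00000090228) rose from 0.663, 0.625, 1.1 and 1.14 CPM in the wild-type retinas to 5.35, 5.10, 3.57 and 5.08 in the mutant libraries, 5.27-fold higher (log2FC 2.4, SE 0.32, edgeR adjusted p = 4.33e-05). *gsta.2* (ENSDARG00000039832) rose from 0.995, 0.75, 1.22 and 2.91 CPM to 5.35, 4.91, 4.35 and 5.48, 3.35-fold higher (log2FC 1.75, SE 0.35, edgeR adjusted p = 0.00145). Mutants exceeded wild-type siblings in every library for both genes, from 4 to 9 and from 6 to 23 wild-type counts per library. They lie with 1 gene between them in the RefSeq annotation of GRCz12tu, and the sources at hand do not say how reads were divided between such copies, so each count is uncertain.

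Members of the kappa, omega and pi classes also rose. *gstk1*, of the kappa class found in mitochondria and peroxisomes, was at 5.64, 5.75, 2.44 and 4.04 CPM in wild-type siblings and at 7.82, 10.4, 9.91 and 6.96 in mutants (log2FC 0.99, SE 0.25, edgeR adjusted p = 0.00713). *gsto2*, of the omega class that reduces dehydroascorbate, was at 0.83, 1.75, 0.244 and 2.02 CPM in wild-type siblings and at 4.42, 3.75, 2.43 and 4.15 in mutants (log2FC 1.57, SE 0.44, edgeR adjusted p = 0.0135). Its neighbour *gsto1*, with no gene between them in that annotation, was not called (log2FC -0.34, SE 0.18). *gstp1*, of the pi class, was the most abundant transferase transcript by TPM and changed least among those called. It was at 50.8 to 56.9 CPM in wild-type siblings against 57.7 to 69.6 in mutants (log2FC 0.25, SE 0.08, edgeR adjusted p = 0.0349). That call ended on log2 TPM and without any library other than wild-type 1 or mutant 3 (edgeR adjusted p = 0.0503 to 0.119).

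The remaining tested transferases were not called in either direction. Their log2FC ran from -0.37 for *gstcd* to 0.56 for *gstm.2*, with *gstm.1* (0.14), *gstt1b* (0.29), *gstr* (-0.13), *gstt2* (-0.27), *gstz1* (-0.30) and the *gstk4* row ENSDARG00000092052 (-0.00) between them. *gstm.2* varied widely within mutants, at 8.95, 12.3, 12.1 and 4.82 CPM, and was called without mutant 4 (log2FC 0.76, edgeR adjusted p = 0.026). *gstm.3*, *gstk2*, *gstt1a*, *gstp2* and the other *gstk4* row (ENSDARG00000093119) had too few counts to be tested, at most 17 in a library. *gstp2* had no count in the wild-type libraries and 0, 6, 0 and 1 in the mutant libraries.

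Of the 7 genes for peroxiredoxins and sulfiredoxin, 4 were called higher (57.1%, against 15.2% of all tested genes), in a group of few genes. Each of the 4 rose by less than 2-fold. *prdx6*, which reduces phospholipid peroxides, was at 31.3, 34.9, 38.9 and 35.5 CPM in the wild-type retinas and at 54.5, 62.2, 51.3 and 70.2 in the mutant libraries (log2FC 0.75, SE 0.11, edgeR adjusted p = 7.39e-05). *prdx2*, of the cytosol, was at 30.0, 25.1, 24.5 and 30.2 CPM in wild-type siblings and at 38.5, 43.2, 39.7 and 43.9 in mutants (log2FC 0.59, SE 0.10, edgeR adjusted p = 0.000377). *prdx3*, of mitochondria, was at 31.3, 35, 31.3 and 33.1 CPM in wild-type siblings and at 38.3, 44.3, 39.5 and 56.3 in mutants (log2FC 0.44, SE 0.12, edgeR adjusted p = 0.00993). These genes had no overlap between genotypes. *prdx4*, of the endoplasmic reticulum, was at 5.47 to 9.76 CPM in wild-type siblings against 9.26 to 14.9 in mutants, with mutant 1 below wild-type 2 (log2FC 0.70, SE 0.20, edgeR adjusted p = 0.0138).

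*prdx5*, found in mitochondria and peroxisomes, had the highest wild-type TPM of all members and was not called. It was at 72.0, 79.9, 83.1 and 86.3 CPM in wild-type siblings and at 69.9, 117, 99.6 and 96.1 in mutants (log2FC 0.25, SE 0.13, edgeR adjusted p = 0.185). Mutant 1 was below every wild-type library while the other mutants were above them, and without mutant 1 the gene was called higher (log2FC 0.37, edgeR adjusted p = 0.00777). *prdx1* (2.68 to 5.97 CPM against 2.94 to 4.62, log2FC -0.21) and *srxn1*, for sulfiredoxin, which repairs over-oxidised peroxiredoxins (5.85 to 7.46 CPM against 4.01 to 6.07, log2FC -0.32), were not called.

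In the thioredoxin system, the cytosolic thioredoxin gene and the thioredoxin inhibitor gene rose while the mitochondrial thioredoxin gene fell. *txn* (ENSDARG00000044125) had 2, 5, 7 and 3 counts in the wild-type libraries and 54, 47, 43 and 38 in the mutant libraries, which is 0.332 to 0.854 CPM against 3.74 to 5.55 (log2FC 3.04, SE 0.36, edgeR adjusted p = 1.25e-05). The mutants were 8.22-fold higher with no overlap, from a level close to the limit of these libraries. *txnipa* (ENSDARG00000036107) encodes Txnip, which binds and inhibits thioredoxin and restrains glucose uptake. It was at 17.1, 16.8, 16.2 and 26.5 CPM in the wild-type retinas and at 70.5, 76.9, 49.7 and 68.8 in the mutant libraries, 3.46-fold higher (log2FC 1.79, SE 0.18, edgeR adjusted p = 2.78e-05). Wild-type 4 stood above the other wild-type libraries and below every mutant library.

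*txn2*, for the mitochondrial thioredoxin, was at 18.2, 22.6, 19.0 and 26.0 CPM in wild-type siblings and at 14.6, 18, 17.5 and 13.0 in mutants (log2FC -0.44, SE 0.15, edgeR adjusted p = 0.0322). The genotypes were apart only by a narrow gap, between wild-type 1 and mutant 2. The call ended without wild-type 2 or 4 or mutant 1 or 4 (edgeR adjusted p = 0.0742, 0.109, 0.0821 and 0.0994). The reductase genes were not called. *txnrd3* was at 37.8 to 44.2 CPM in wild-type siblings and at 44.8 to 52.0 in mutants, with no overlap (log2FC 0.20, SE 0.09, edgeR adjusted p = 0.106), and *txnrd2.2*, of the mitochondrial form, at 4.8 to 5.47 and 4.41 to 6.17 CPM. *txnl1*, a thioredoxin-like gene, was at 14.8 to 22.1 and 20.6 to 25.2 CPM (log2FC 0.25). *txnipb* had no count in the wild-type libraries and 2, 1, 1 and 2 in the mutant libraries, and *txnrd2.1* had none at all.

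Of the 9 genes for other proteins with a thioredoxin fold, 2 were called higher (22.2%, against 15.2% of all tested genes), too few genes to set apart from that share. *txndc5*, for a disulfide isomerase of the endoplasmic reticulum, was at 25.7, 27.9, 35.5 and 25.3 CPM in wild-type siblings and at 38.9, 46.7, 38.7 and 47.9 in mutants (log2FC 0.58, SE 0.12, edgeR adjusted p = 0.00172). *txndc12*, also of the endoplasmic reticulum, was at 17.2, 21.8, 24.0 and 27.2 CPM in wild-type siblings and at 30.8, 30.8, 25.6 and 38.1 in mutants (log2FC 0.46, SE 0.14, edgeR adjusted p = 0.026). Mutant 3 fell below wild-type 4 for *txndc12*. Its call ended without wild-type 1 or 2 or mutant 1, 2 or 4 (edgeR adjusted p = 0.0511 to 0.0949). The call also ended on log2 TPM (limma adjusted p = 0.0622 and 0.0586). *txndc9*, *txndc11*, *txndc15*, *txndc16*, *txndc17* and the splicing-related *txnl4a* and *txnl4b* were not called, with log2FC from -0.04 (*txndc9*) to 0.33 (*txndc11*).

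Glutaredoxins use glutathione to reduce protein disulfides, and 1 of 4 was called higher (25%, against 15.2% of all tested genes), again too few to set apart. *glrx2*, with a mitochondrial form, was at 13.9, 20.6, 22.8 and 15.5 CPM in wild-type siblings and at 25.3, 21.5, 25.0 and 25.4 in mutants (log2FC 0.40, SE 0.15, edgeR adjusted p = 0.0495). Mutant 2 lay below wild-type 3, and the call ended under 9 of 16 other settings, among them the fits without wild-type 1 or 4 or mutant 1, 3 or 4 (edgeR adjusted p = 0.0821 to 0.136). *glrx* (log2FC 0.40, SE 0.34), *glrx3* (0.05) and *glrx5* (0.09), of which the last serves iron-sulfur cluster assembly, were not called.

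Among the superoxide dismutases, *sod3a* rose, *sod2* fell, and *sod1* and *sod3b* were not called. Sod1 works in the cytosol, Sod2 in mitochondria and Sod3 outside the cell, each turning superoxide into hydrogen peroxide, which catalase then breaks down in peroxisomes. *sod3a* (ENSDARG00000070168) had 3, 1, 1 and 7 counts in the wild-type libraries and 75, 68, 39 and 38 in the mutant libraries, or 0.122 to 0.885 CPM against 3.39 to 7.71 (log2FC 3.78, SE 0.48, edgeR adjusted p = 2.22e-05). It had the largest change of all members, 13.7-fold, and wild-type 4 held most of its wild-type counts, so that the log2FC was 4.56 without that library. *sod3b* was at 2.49 to 4.93 CPM in wild-type siblings against 2.09 to 3.34 in mutants (log2FC -0.22). By TPM, the ratio of *sod3a* to *sod3b* was 0.13 in wild-type siblings against 2.14 in mutants, and the log2 CPM ratio was higher in 4 of 4 mutant libraries (two-sided exact permutation test, p = 0.0286, adjusted p = 0.0857 over the 9 pairs).

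The mitochondrial gene *sod2* (ENSDARG00000042644) was at 43.8, 48.2, 45.1 and 42.8 CPM in the wild-type retinas and at 27.2, 34.9, 35.4 and 37.7 in the mutant libraries, with no overlap (log2FC -0.41, SE 0.10, edgeR adjusted p = 0.00701). *sod1* was at 7.96 to 10.9 CPM in wild-type siblings and at 7.60 to 10.7 in mutants (log2FC -0.03, SE 0.18). *cat*, for catalase, rose from 17.6, 20.8, 21.5 and 19.5 CPM to 27.6, 26.3, 24.8 and 24.9 (log2FC 0.38, SE 0.11, edgeR adjusted p = 0.013), with all mutants above all wild-type siblings. On log2 TPM, where limma was used, *cat* was no longer called (limma adjusted p = 0.0902 and 0.0907).

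The heme oxygenases split heme into iron, carbon monoxide and biliverdin, and none of them was called. *hmox2a* was at 21.1 to 29.2 CPM in wild-type siblings against 23.0 to 26.3 in mutants (log2FC -0.03). *hmox2b* was at 27.1 to 29.3 and 28.4 to 38.6 CPM (log2FC 0.23, SE 0.11, edgeR adjusted p = 0.116), with mutant 3 lowest, and was called without mutant 3 (0.32, edgeR adjusted p = 0.0353). *hmox1a*, the inducible form, had 3, 3, 3 and 27 counts in the wild-type libraries and 10, 27, 22 and 4 in the mutant libraries. The genotypes overlapped through wild-type 4 alone. At 3.41 CPM it lay above every mutant (0.535 to 2.60), while wild-type 1, 2 and 3 lay below them (0.366 to 0.497), all on few counts. *nqo1*, for a quinone reductase long used as an Nrf2 target, had 1, 8, 1 and 3 counts in wild-type siblings and 11, 18, 12 and 8 in mutants. Neither passed the count filter. When the filter was dropped, 12 of the 14 untested genes could be fitted, and *nfe2l2b* alone of these was called (log2FC 1.72, SE 0.60, edgeR adjusted p = 0.0383), with *nqo1* at 1.52 (SE 0.64, edgeR adjusted p = 0.102).

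No difference in response between related genes passed the test of their ratio. Of 9 pairs of related genes or subunits, 3 reached the smallest p that the exact permutation test allows (p = 0.0286; *gpx1a* to *gpx1b*, *gpx4a* to *gpx4b* and *sod3a* to *sod3b*), and 0 passed after adjustment over the pairs (adjusted p = 0.0857 for each of the 3). With 4 libraries per genotype, a pair at the smallest p could pass this adjustment only if most of the 9 pairs reached it too, so the count of 0 says little about the pairs. The others were *gclc* to *gclm*, *gsta.1* to *gsta.2*, *gstm.1* to *gstm.2*, *hmox2a* to *hmox2b*, *keap1a* to *keap1b* and *txnl4a* to *txnl4b*, with unadjusted exact permutation p from 0.0571 to 0.857.

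Levels of different genes were set beside each other in the deposited TPM, which are scaled by gene length. In wild-type siblings *prdx5* was highest at 171 ± 14.3 TPM (SD, n = 4), followed by *gstp1* at 111 ± 3.59 and *gpx4b* at 108 ± 11, and the latter pair differed by less than their spread. *sod2* (68.2 ± 5.38) and *prdx6* (61.8 ± 6.97) came next and were likewise within their spread of each other. In mutants *gpx4b* was highest at 410 ± 61.2 TPM, followed by *prdx5* at 204 ± 31.7, *gstp1* at 135 ± 20.1 and *prdx6* at 106 ± 18.5, while *sod2* stood at 51.7 ± 5.31 and moved from the fourth place to the seventh. *gpx4b* made up 8.44% of the summed TPM of the 59 tested genes in wild-type siblings and 22.2% in mutants. Summed over all 73 genes, TPM was 1285 ± 39.5 in wild-type siblings against 1848 ± 175 in mutants.

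By role, the summed TPM of the glutathione peroxidases differed most. It was 177, 161, 147 and 162 in the wild-type libraries and 396, 481, 412 and 531 in the mutant libraries, 2.81 times as high, and *gpx4b* supplied most of it. The peroxiredoxins with sulfiredoxin summed to 333 to 379 TPM in wild-type siblings against 428 to 530 in mutants, and the thioredoxins, their reductases and Txnip to 78.0 to 99.3 and 103 to 139. These sums did not overlap between genotypes. The dismutases and catalase did not part, at 90.0 to 101 TPM against 80.5 to 98.9. The transferases overlapped through mutant 3 alone, which at 242 TPM lay among the wild-type libraries (236 to 250) and below the other mutants (288 to 326). The same held for the regulators, glutathione synthesis and recycling, the thioredoxin-domain proteins, and the heme oxygenases with *nqo1*. Mutant 3 stood at 34.8, 47.4, 120 and 47.9 TPM for these roles, while the other mutants lay above every wild-type library. The glutaredoxins overlapped through mutants 2 and 3, at 87.8 and 84.3 TPM against 72.3 to 94.1 in wild-type siblings.

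**Figure D4:**
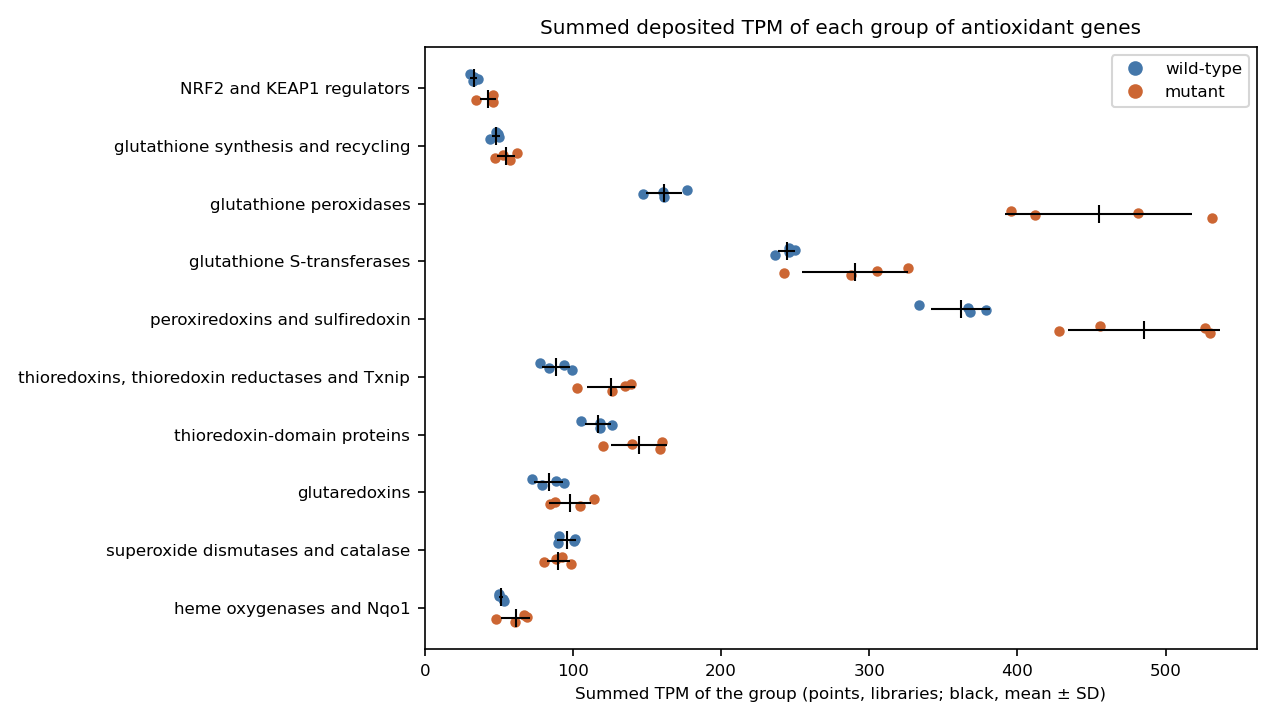
Summed deposited TPM (horizontal axis, from 0) of the antioxidant genes of each role in the 4 wild-type (blue) and 4 mutant (orange) libraries, with mean ± SD in black. The glutathione peroxidases part most, at 147 to 177 against 396 to 531 TPM, and the dismutases and catalase overlap.

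The lowest mutant library differed among the members called higher. Of the 20, 11 had their lowest mutant value in mutant 3 (55%). This is close to the 52.7% of all 2603 genes called higher and does not set the members apart. Mutant 3 had the lowest summed level of RPE markers among the mutants. It was also lowest for microglia and macrophage markers, at 289 CPM against 341 to 389. Among the 11 members were *sod3a*, *txn*, *gsta.1*, *gsta.2*, *gsto2* and *txnipa*. The genes *gpx4b*, *prdx2*, *prdx3* and *prdx4* were lowest in mutant 1, and *nfe2l2a*, *gclm*, *gsr* and *gstk1* in mutant 4. The highest wild-type value fell in wild-type 4 for 8 of the 20 (40%, against 26.3% of all genes called higher). Wild-type 4 had the highest wild-type level of RPE markers, and wild-type 1 that of microglia and macrophage markers. This comparison of libraries was chosen after the values were seen, and a link between marker levels and the members was not tested.

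Other genes of glutathione metabolism, NADPH supply and the Nrf2 network, taken from a separate list, moved both ways. Of the 80 such genes found, 66 were tested, and 17 were called higher (25.8%, against 15.2% of all tested genes) and 8 lower (12.1%, against 13%), with a median log2FC of 0.12. Of the 17, *me1*, *cbsa*, *nfe2l1a*, *ucp2* and *blvrb* met the count filter only because of the mutant libraries, so a call of lower was hardly open to them. Among NADPH-yielding enzymes, *me1* (malic enzyme, log2FC 3.92, SE 0.33) and *idh1* (isocitrate dehydrogenase, 1.08, SE 0.14) rose. *me1* had 3, 7, 2 and 3 counts in the wild-type libraries, and its log2FC was 2.32 in the lowest of the other settings. *taldo1*, of the pentose phosphate pathway, rose (0.78, SE 0.10) and *tkta* fell (-0.32, SE 0.08), a call that ended with library totals (edgeR adjusted p = 0.0714) and on log2 TPM (limma adjusted p = 0.0743 and 0.0756). *cbsa*, of cysteine synthesis, rose (2.96, SE 0.42) to 4.02 CPM in mutants. The related gene *cbsb* was not called (-0.01, SE 0.17), at 70.1 CPM in wild-type siblings and 69.4 in mutants. The Nrf2 relatives *nfe2l1a* (2.66, SE 0.36) and *nfe2l1b* (0.32, SE 0.07) rose, as did the exporter gene *abcc4* (1.56, SE 0.17). *blvrb*, for a biliverdin reductase (1.56, SE 0.29), the mitochondrial carrier gene *ucp2* (3.60, SE 0.44) and *selenot2* (0.53, SE 0.09) were higher as well. *cbsa*, *nfe2l1a* and *ucp2* had at most 13 counts in any wild-type library. In the lowest of the other settings their log2FC was 1.35, 1.48 and 2.66. Of the genes of the gamma-glutamyl cycle, *ggt5a* (-1.25, SE 0.15), *oplah*, for 5-oxoprolinase (-1.05, SE 0.21), and *chac1* (-0.95, SE 0.18) fell, while *chac2* (-0.11, SE 0.17) and *ggctb* (0.0070, SE 0.20) were not called and *ggt1a* and *ggt1b* had too few counts to be tested. Also lower were the exporter gene *abcc3* (-0.64, SE 0.10), *selenop*, of selenium transport (-0.31, SE 0.08; not called with library totals or on log2 TPM), and *msrb3*, for a methionine sulfoxide reductase (-0.35, SE 0.11; not called with library totals, on log2 TPM, or without wild-type 2 or 4 or mutant 2, 3 or 4). *slc7a11*, for the cystine importer, was not called (log2FC 0.69, edgeR adjusted p = 0.367).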

How the data were processed

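RNA of 8 zebrafish retina samples was analysed, 4 *bbs2* -/- and 4 *bbs2* +/+, grouped by their titles. The authors made stranded, ribosome-depleted libraries and aligned reads to GRCz11 with STAR. Per the submitters' processing notes, DESeq2 1.30.1 and R 4.0.4 were used. The authors deposited raw counts per gene as whole numbers, on which the tests were run, and TPM, for which the sources used here name no tool. Neither the strand setting nor the handling of reads that match several genes is stated there, so counts of close copies or overlapping genes are uncertain. The deposited normalized counts and the authors' table of fold changes, p-values and FDR were not used. All 73 members matched the table of gene names at hand.

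The quasi-likelihood test of edgeR 4.0.16, run in R 4.3.3 with robust dispersion, compared the genotypes with no other term. Library sizes were TMM-scaled, genes were kept by filterByExpr (minimum count 10), and p-values were adjusted by Benjamini-Hochberg across the 17144 genes kept (FDR 0.05). CPM are counts over TMM-scaled library sizes, where 1 CPM is 6.03 to 11.5 counts. The labels give replicates as separate samples, and where nothing says more, p-values measure the spread between these samples. They differed by more than sampling noise (chi-square per degree of freedom 5.51 to 12.6). Ratios of related genes (symbols alike up to a final letter or number, and *gclc* with *gclm*) used log2 CPM (prior count 2) and a two-sided exact permutation test. Alternatives were DESeq2 1.42.0, other scaling and filters, limma 3.58.1 on log2(TPM + 0.1) and log2(TPM + 1), a replicate block and leaving out each library. The fitting step was tested on simulated data. Every member is named, those called with their values in the libraries or their range, and of the separate pathway list the 10 called higher with the smallest p and those called lower, of which 1 is not reported here. The members, lists and rules were chosen with earlier results of these data known.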

Additional observations from a re-analysis of the deposited data

Results flagged for a closer look

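In 118 groups of 4 libraries (59 genes in each genotype), 6 held a library far from the other 3, and chance flags about 1 in 20 groups. *txnipa* stood at 26.5 CPM in wild-type 4 against 16.2 to 17.1 in the other wild-type libraries, and *gsto1* at 8.17 CPM in wild-type 3 against 11.1 to 11.4. In mutants, *gpx1b* stood at 6.83 CPM in mutant 2 against 2.57 to 3.21, *gsta.1* at 3.57 in mutant 3 against 5.08 to 5.35, *glrx* at 1.74 in mutant 3 against 3.48 to 3.66, and *glrx2* at 21.5 in mutant 2 against 25.0 to 25.4.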

How the results depend on the processing

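Of the 24 called members, 18 kept their call in each of the 16 other settings in which they were tested, and none changed direction. *txn*, *sod3a*, *gsta.1*, *gsta.2* and *gsto2*, among these 18, were not tested at a minimum of 10 counts in every library and so had 15 settings. The exceptions were *gpx1a*, *glrx2*, *gstp1*, *txndc12*, *txn2* and *cat*, named with their values above; the cause was not tested. With at least 10 counts in every library, 15 of 51 tested members were called higher, where 2056 of all 14867 tested genes were. With library totals 25 of 59 were, where 3324 of all 17144 tested genes were. With a library left out, 18 to 20 were, where 2174 to 2658 of 17304 to 17514 genes were. Members called lower numbered 2 with library totals, where 1335 of all 17144 tested genes were called lower. They numbered 2 to 4 with a library left out (2 without wild-type 2, wild-type 4, mutant 1 or mutant 4), where 1765 to 2054 of all tested genes were called lower. Library totals moved the median of all tested genes to 0.09, that of the members to 0.35 (0.19 to 0.27 with a library left out), and the share of higher calls over all genes from 54% to 71.3%. With them *txn2* was at adjusted p = 0.0888 and *gpx1a* at 0.126, and *txnrd3*, *hmox2b*, *prdx5*, *txndc11* and *gpx1b* were called higher. Pathway genes called lower went from 8 to 5 with library totals and with limma on log2 TPM at either pseudocount, and to 7 to 8 with a library left out. Pathway genes called higher numbered 12 with at least 10 counts in every library, where 2056 of all 14867 tested genes were. They went from 17 to 15 to 20 with a library left out, and *bbs2* stayed called throughout. The count of related pairs that passed was 0 under each setting, which the smallest p of these designs nearly fixes.

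Signs turned for uncalled values near 0. *gstk4* went to 0.0021 (RLE size factors), 0.087 (library totals), 0.042 and 0.011 (log2 TPM at the lower and higher pseudocount), 0.021 (replicate block) and -0.36 to 0.55 with a library left out. Library totals gave 0.062 for *sod1*, 0.075 for *hmox2a* and 0.058 for *txndc9*. With a library left out, *sod1* ran from -0.12 to 0.051, *hmox2a* from -0.11 to 0.045, *sod3b* from -0.34 to 0.028, *glrx3* from -0.0028 to 0.12 and the log2 ratio of *txnl4a* to *txnl4b* from -0.19 to 0.31 (mutant minus wild-type).

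The replicate numbers did not pair the samples (correlation of deviations from group means -0.066 to 0.060 over 4 same-numbered pairs, and 2 of 4 mutants correlated best with their own number). With the replicate block 20 members were called higher and 3 lower, where 2550 and 2209 of all 17144 tested genes were. *gpx1b* became called (log2FC 1.2, edgeR adjusted p = 0.0178), and *glrx2* (0.0511) and *gpx1a* (0.0727) were no longer called. Genes under about 1 CPM in a genotype, such as *txn* and *sod3a* in wild-type siblings, rest on few counts, and their fold depends on the pseudocount (log2FC 2.02 and 2.67 on log2(TPM + 1)).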
